A study of Rattus norvegicus with 12 samples.

Results

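The nuclear receptors that set much of the gene programme of the hepatocyte were followed at the mRNA level in rat liver. The set held 9 genes, namely Hnf4a, Nr5a2 (LRH-1), Nr0b2 (SHP), Nr1h4 (FXR), Nr1h3 (LXR alpha), Ppara (PPAR alpha), Rxra (RXR alpha), Nr1i2 (PXR) and Nr1i3 (CAR). Each was read from the probe sets that the array annotation ties to that symbol and no other, which gave 13 probe sets and made the set 9 of 14218 genes with such a probe set. The rule that picks their probe sets uses no measured value. Livers came from Sprague-Dawley rats of a sex and age that the labels do not state. The 12 arrays held 1 animal each, and each of the 4 groups had 3 animals. The normal diet group (animals 2, 3 and 4) ate standard chow. The HFD group (animals 24, 36 and 87) ate a high-fat diet, a feeding model of fatty liver. The QHD group (animals 45, 46 and 47) ate the HFD for 4 weeks and then received Qushi Huayu Decoction, a Chinese herbal medicine, by daily gavage at 0.1 ml/kg for 4 further weeks on the same diet. The GC group (animals 35, 37 and 55) was handled alike but received a mixture of geniposide and chlorogenic acid, 2 plant compounds, at a dose and ratio that the labels do not state. QHD and GC were thus compared as given and not at matched doses. The sample titles give 4 weeks for all groups, and whether the HFD animals spent as long on the diet as the treated animals is not known from them.

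Nuclear receptors are transcription factors whose activity is set by small lipophilic molecules, among them bile acids, fatty acids, oxysterols and drugs. FXR, LXR alpha, PPAR alpha, PXR and CAR bind DNA as partners of RXR alpha, while HNF4A binds as a pair of its own and LRH-1 as a single molecule. SHP has no DNA-binding domain and represses other receptors, LRH-1 and HNF4A among them. Because a ligand can switch a receptor with no change in its mRNA, an mRNA signal gives the amount of message and not the activity of the receptor.

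The array labelled normal diet 3 did not carry the profile of liver. Over 14 hepatocyte markers it had a median log2 signal of 6.26, where the remaining 11 arrays had 14.65 to 15.18. Over 9 adipocyte markers it had 13.97, where they had 6.01 to 7.38. The rule for this gene set leaves the array labelled normal diet 3 out, so the normal diet group was read from animals 2 and 4. Every value below comes from 11 arrays unless that array is named. These deposited values are log2 MAS5 signals, in which a difference of 1 is a doubling. Precision is limited by the small number of arrays. Liver is a mixture of cells, so fewer cells of a type and less RNA per cell cannot be told apart.

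Of the 9 receptors 7 had signals far above the middle of the array, 1 lay close to it and 1 lay below it. The median of all probe sets, averaged over the 11 arrays, was 6.66 and served as the limit of what was called near background. Ppara, the receptor that switches on fatty acid oxidation, had a mean log2 signal of 4.38, at the 22.5th percentile of all probe sets. It therefore lay near background and did not enter the test. Rxra had a mean of 7.23, at the 56.4th percentile, and on QHD animal 46 its signal of 6.54 was below the limit. The other 7 lay between the 88.0th percentile (Nr1i2, mean 10.30) and the 98.4th (Hnf4a, mean 13.35). Percentiles are given only to show distance from background, since signals of different probe sets do not rank mRNA amounts.

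**Figure D1:**
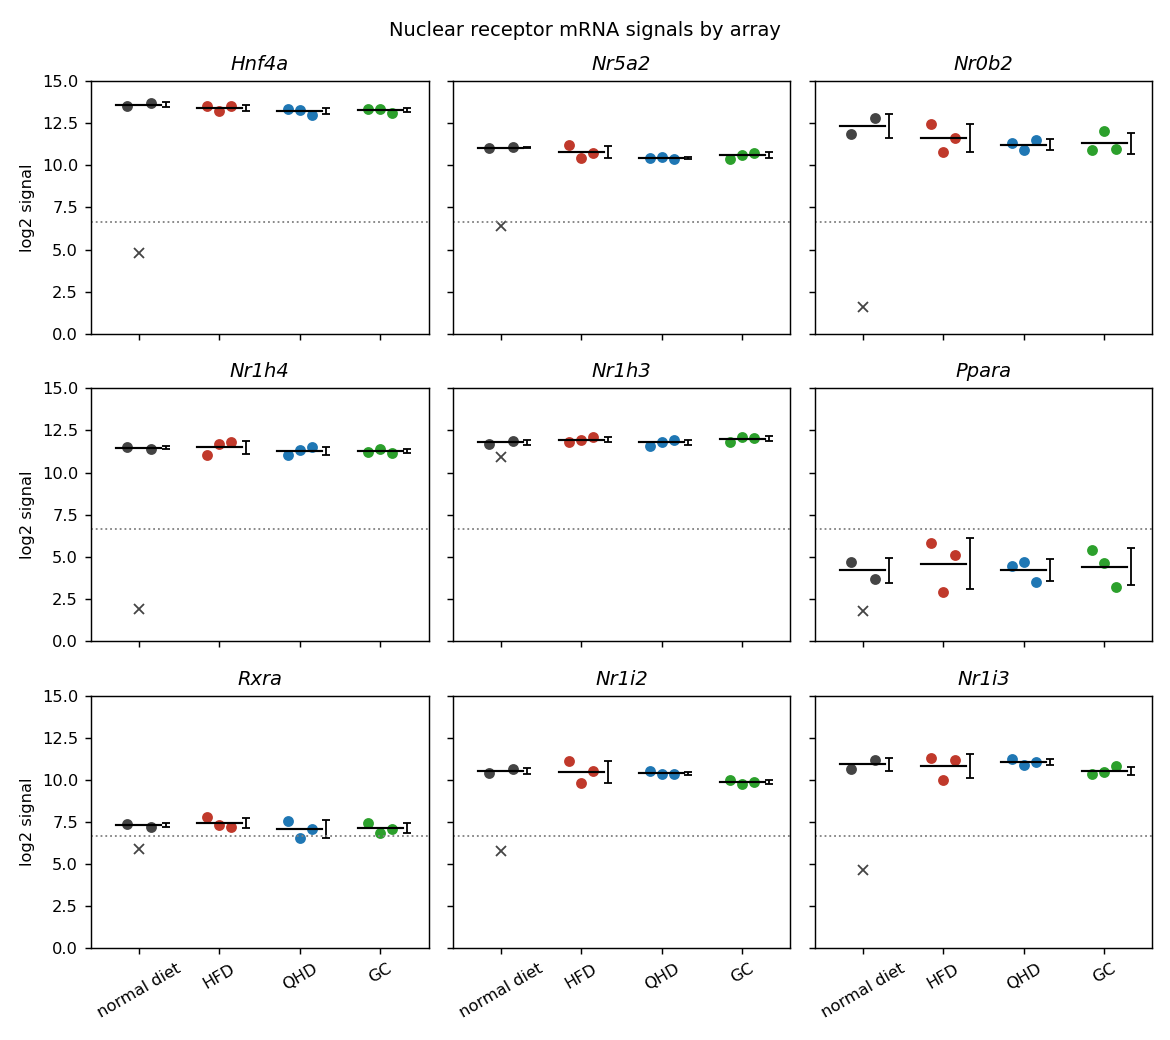
The log2 signal of each receptor (vertical axis) is plotted for every array by group; points are animals, horizontal lines are group means, vertical bars are the SD, crosses are the array labelled normal diet 3 (not in the means) and the dotted line is the limit of 6.66. Ppara sits under the limit in every group and Rxra just above it, while the other 7 receptors lie at 9.77 or higher on all 11 arrays.

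No receptor passed the test in any of the 6 comparisons between groups. The test was a linear model with 1 mean per group fitted with limma to 9459 genes, and a gene was called when its p, adjusted by Benjamini-Hochberg over all those genes, was under 0.05. For HFD against normal diet 0 of 8 tested receptors were called beside 0.529% of all genes tested, and 0 had an unadjusted p under 0.05 beside 14.4% of all genes. For QHD against HFD the counts were again 0 and 0, beside 0.56% and 12.7%. GC against HFD gave 0 called receptors and 1 with an unadjusted p under 0.05, beside 0.0951% and 8.76%. QHD against GC gave 0 and 0, beside 0.275% and 9.98%. In QHD against normal diet, where many more genes moved, 0 receptors were called and 2 had an unadjusted p under 0.05, beside 7.46% and 25.1% of all genes. GC against normal diet likewise gave 0 called and 3 unadjusted, beside 9.61% and 25.6%. With 8 receptors the background share of adjusted calls amounts to less than 1 call per comparison, so the counts do not set the receptors apart from other genes.

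Without regard to the test, 7 of the 8 receptors had a change below 0 in QHD against HFD, GC against HFD, QHD against normal diet and GC against normal diet, where 43.0% to 46.8% of all genes did. The comparisons share arrays and the receptors share animals, so these counts are descriptions. Hepatocyte markers moved alongside, with 14 of 14 below 0 in QHD against HFD, QHD against normal diet and GC against normal diet (medians -0.17, -0.22 and -0.11) and 13 of 14 in GC against HFD (median -0.08), and their part in the receptor values was not tested. On the log2 scale the receptors had a median change of -0.21 with QHD and -0.27 with GC when set against the HFD, and of -0.19 and -0.36 when set against the normal diet. For HFD against normal diet it was -0.06 with 5 of 8 below 0, and for QHD against GC -0.05 with 5 of 8. The receptor above 0 was Nr1i3 with QHD and Nr1h3 with GC, against either diet.

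The HFD alone moved no receptor beyond the spread between animals. The smallest adjusted p of that comparison was 0.563 by limma, for Nr5a2 at -0.27 (SE 0.18, 95% interval -0.67 to 0.13). Nr0b2 was at -0.71 (95% interval -1.82 to 0.40), Hnf4a at -0.19 (95% interval -0.49 to 0.10) and Nr1h3 at 0.17 (95% interval -0.14 to 0.47). Against the HFD, QHD gave its smallest adjusted p also for Nr5a2, 0.418 by limma at -0.34 (SE 0.16, 95% interval -0.70 to 0.023), and Hnf4a was at -0.21 (95% interval -0.48 to 0.051). Intervals this wide do not show that the receptor mRNAs were equal between groups.

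**Figure D2:**
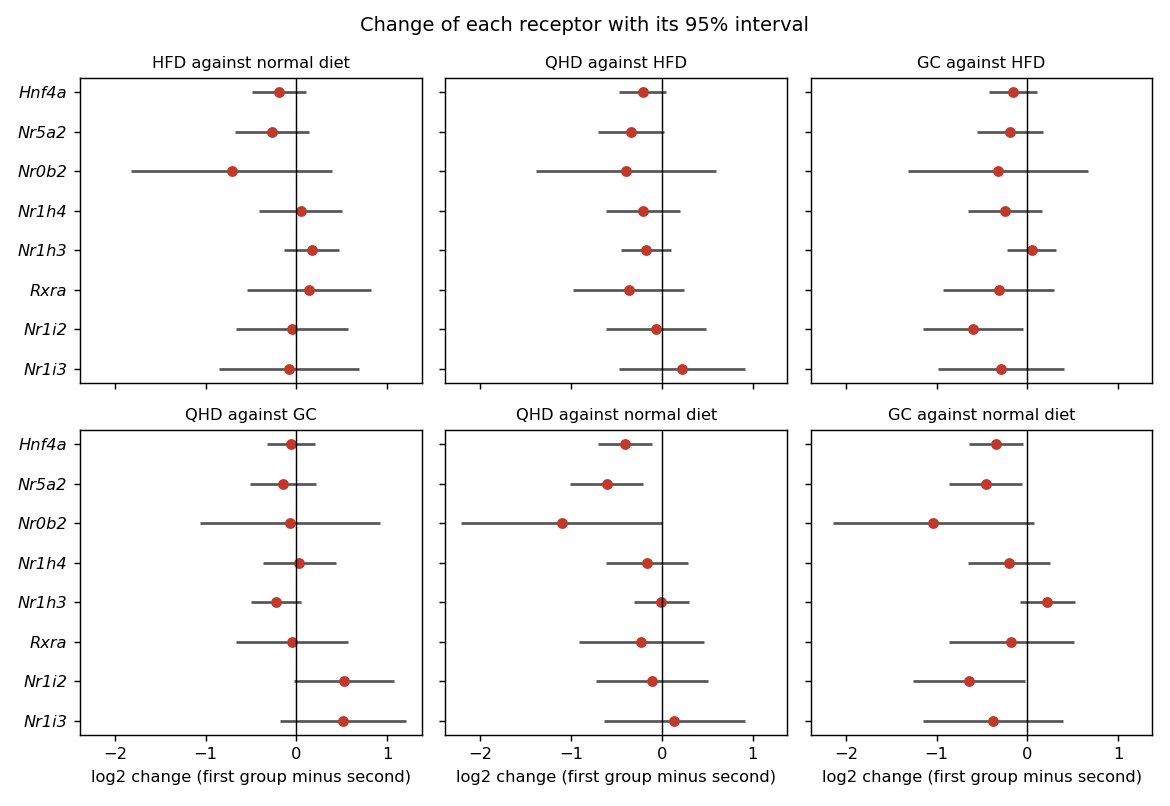
Each panel plots the log2 change of the 8 tested receptors (horizontal axis, first-named group minus the other) with its 95% interval from the limma fit; the vertical line marks 0. Intervals that miss 0 are those of Nr1i2 in GC against HFD, Nr5a2 and Hnf4a in QHD against normal diet and Nr1i2, Nr5a2 and Hnf4a in GC against normal diet, and after adjustment none of the 48 changes passes.

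Hnf4a, the master regulator of hepatocyte identity and of lipoprotein and clotting factor genes, differed little between groups. Its log2 signal was 13.50 and 13.71 on the normal diet, 13.51, 13.23 and 13.52 on the HFD, 13.32, 13.28 and 13.01 with QHD and 13.35, 13.31 and 13.13 with GC. Both normal diet arrays lay above all QHD and GC arrays, and the HFD arrays overlapped with every group. The group means were 13.61 ± 0.15 (SD, n = 2) on the normal diet, 13.42 ± 0.17 (SD, n = 3) on the HFD, 13.20 ± 0.17 (SD, n = 3) with QHD and 13.26 ± 0.12 (SD, n = 3) with GC. QHD against normal diet came to -0.40 (SE 0.13, 95% interval -0.70 to -0.11, adjusted p = 0.0888, limma) and GC against normal diet to -0.35 (SE 0.13, adjusted p = 0.129, limma). The other pair of Hnf4a probe sets, which had lower signals, gave -0.13 and -0.11 for QHD and -0.10 and 0.09 for GC against normal diet. The probe sets of this gene thus did not share the size of the difference, nor, with GC, its direction.

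Nr5a2 encodes LRH-1, which drives bile acid synthesis genes together with HNF4A and is held back by SHP. Its signal was 11.05 and 11.07 on the normal diet, 11.19, 10.44 and 10.73 on the HFD, 10.45, 10.51 and 10.39 with QHD and 10.40, 10.63 and 10.76 with GC. All 6 treated arrays lay below both normal diet arrays, and the HFD arrays spanned both levels. QHD against normal diet came to -0.61 (SE 0.18, 95% interval -1.01 to -0.20), which had the smallest adjusted p of any receptor in any comparison, 0.0678 by limma, and did not pass. This value crossed the threshold under other settings, with an adjusted p of 0.0160 in a limma fit of those groups alone and of 0.0307 in one with array weights; it also crossed it without HFD animal 24 (0.0198) or HFD animal 36 (0.0275). Over the 20 alternatives the adjusted p ran from 0.0160 to 0.655. The remaining Nr5a2 probe sets gave -0.87 (adjusted p = 0.184, limma) and -1.62 (adjusted p = 0.240, limma), the same direction with wider spread. The dimmer of them read 8.69 and 8.74 on the normal diet, 8.84, 7.57 and 5.87 on the HFD, 7.38, 7.96 and 5.96 with QHD and 7.89, 7.63 and 7.78 with GC, so HFD animal 87 and QHD animal 47 lay under the background limit there. GC against normal diet came to -0.46 (SE 0.18, adjusted p = 0.141, limma), and among the 20 alternatives it passed only without HFD animal 24, at an adjusted p of 0.0477 in a range of 0.0477 to 0.645. QHD and GC themselves differed by -0.15 with overlapping arrays.

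Nr0b2, the gene of the repressor SHP, varied most from animal to animal among the 8 tested receptors. Its signal was 11.85 and 12.83 on the normal diet, 12.46, 10.77 and 11.65 on the HFD, 11.31, 10.89 and 11.49 with QHD and 10.88, 12.03 and 10.98 with GC. The QHD arrays lay below both normal diet arrays, whereas the HFD and GC arrays overlapped with them. The pooled SD within groups was 0.65, at the 97.3rd percentile of all tested genes. QHD against normal diet came to -1.11 (SE 0.50, 95% interval -2.21 to 0.0027, adjusted p = 0.200, limma) and GC against normal diet to -1.04 (adjusted p = 0.225, limma). Neither was distinguishable from 0 beside this spread.

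SHP and LRH-1 act on each other's pathways, and LRH-1 is known to bind the promoter of the SHP gene, so the start regions of both genes are shown. They were taken from RefSeq on build GRCr8 and run from 250 bases before the gene start to 50 after it. Promoters were listed for 8 of the 9 receptors, 9 promoters in all. Searched on both strands were CAAGGNCA, the site of the LRH-1 family, and AGGTCA, the core element of many nuclear receptors; the letters of the pair overlap in part, since both hold the bases GGNCA. CAAGGNCA was present in 6.55% of 33469 promoters of this length and AGGTCA in 16.2%. Of the 9 receptor promoters 2 held CAAGGNCA (those of Nr0b2 and Nr1h3) and 1 held AGGTCA (Nr5a2). The Nr0b2 promoter lies on the forward strand at chr5:151062910-151063209 and the Nr5a2 promoter on the reverse strand at chr13:50984889-50985188, both are printed in the direction of transcription, and capitals mark the matches, CAAGGNCA in the one and AGGTCA in the other. A match of letters is a description and not a binding site.
Nr0b2: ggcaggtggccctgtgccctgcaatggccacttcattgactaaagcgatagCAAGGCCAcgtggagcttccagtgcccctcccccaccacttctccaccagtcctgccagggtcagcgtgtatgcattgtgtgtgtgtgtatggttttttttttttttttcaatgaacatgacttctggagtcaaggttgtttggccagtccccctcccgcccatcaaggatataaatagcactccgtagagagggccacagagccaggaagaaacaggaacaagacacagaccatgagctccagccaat
Nr5a2: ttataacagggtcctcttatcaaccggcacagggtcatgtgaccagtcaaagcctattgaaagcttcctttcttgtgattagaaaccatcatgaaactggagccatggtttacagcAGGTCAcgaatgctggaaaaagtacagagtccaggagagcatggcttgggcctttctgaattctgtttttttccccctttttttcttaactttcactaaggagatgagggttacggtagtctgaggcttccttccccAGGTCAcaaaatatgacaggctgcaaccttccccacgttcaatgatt
Over the 11 arrays the signals of Nr0b2 and Nr5a2 correlated at 0.78 (Pearson), which is given as a description because arrays of 1 group share their treatment.

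Nr1h4, the gene of the bile acid receptor FXR, had group means between 11.26 and 11.51. Its signal was 11.52 and 11.40 on the normal diet, 11.05, 11.67 and 11.80 on the HFD, 11.02, 11.37 and 11.50 with QHD and 11.23, 11.40 and 11.17 with GC. HFD animals 36 and 87 had the highest values. All GC arrays lay below both normal diet arrays, by a margin under the rounding at the nearest pair, and every other pair of groups overlapped. The interval for QHD against normal diet ran from -0.62 to 0.29 around -0.16 (adjusted p = 0.677, limma), and that for GC against normal diet from -0.65 to 0.26 around -0.20 (adjusted p = 0.602, limma).

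Nr1h3, the gene of the oxysterol receptor LXR alpha, which turns on cholesterol export and fatty acid synthesis genes, had the smallest range of the receptors over the 11 arrays, 0.53. The normal diet arrays read 11.69 and 11.89, the HFD arrays 11.84, 11.91 and 12.13, the QHD arrays 11.60, 11.83 and 11.92 and the GC arrays 11.84, 12.11 and 12.08. HFD animal 87 and GC animals 37 and 55 read highest, and the groups overlapped. QHD against normal diet was -0.01 (95% interval -0.31 to 0.30), which turned to 0.032 after quantile normalization, and GC against normal diet 0.22 (95% interval -0.09 to 0.52, adjusted p = 0.365, limma).

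Ppara read 4.72 and 3.68 on the normal diet, 5.83, 2.89 and 5.10 on the HFD, 4.48, 4.70 and 3.50 with QHD and 5.41, 4.66 and 3.22 with GC. Its HFD arrays alone spanned the signals of all other groups. In a limma fit without the limit on low signals its changes ran from -0.38 to 0.41 with SEs of 0.84 to 0.94 and adjusted p of 0.925 to 0.993. Intervals of that width, such as -1.64 to 2.45 for HFD against normal diet and -2.21 to 1.45 for QHD against HFD, mean that a change of several fold was not detectable for this gene on these arrays.

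Rxra, the shared partner of most of the other receptors, read 7.38 and 7.22 on the normal diet, 7.79, 7.35 and 7.19 on the HFD, 7.58, 6.54 and 7.11 with QHD and 7.44, 6.86 and 7.09 with GC. The groups overlapped, and its changes ran from -0.36 (QHD against HFD, adjusted p = 0.639, limma) to 0.14 (HFD against normal diet, adjusted p = 0.894, limma). Its direction in QHD against GC (-0.05) turned to 0.013 after quantile normalization, so no direction is given for it there.

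Nr1i2 (PXR) and Nr1i3 (CAR) sense drugs and other foreign compounds and induce the enzymes that clear them, and GC arrays had the lowest group mean for both. Nr1i2 read 10.40 and 10.64 on the normal diet, 11.09, 9.81 and 10.52 on the HFD, 10.51, 10.34 and 10.37 with QHD and 10.02, 9.77 and 9.85 with GC. All GC arrays lay below all normal diet and QHD arrays, while HFD animal 36 lay among them. GC against normal diet came to -0.64 (SE 0.28, 95% interval -1.26 to -0.02, adjusted p = 0.178, limma), GC against HFD to -0.60 (SE 0.25, 95% interval -1.15 to -0.04, adjusted p = 0.545, limma) and QHD against GC to 0.53 (SE 0.25, 95% interval -0.03 to 1.08, adjusted p = 0.518, limma).

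The call on Nr1i2 against the HFD depended on HFD animal 36. Without this animal GC against HFD was -0.93 with an adjusted p of 0.0328 by limma, and array weights gave -0.70 with an adjusted p of 0.0235, over a range of 0.0235 to 1.00 for the alternatives of this comparison. GC against normal diet, whose value of -0.64 does not use that animal, also passed when the error was estimated without HFD animal 36 (adjusted p = 0.0285), with array weights (0.0355) and in a fit of those groups alone (0.0273), over a range of 0.0273 to 0.703.

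Nr1i3 read 10.64 and 11.19 on the normal diet, 11.31, 9.99 and 11.20 on the HFD, 11.22, 10.88 and 11.06 with QHD and 10.35, 10.45 and 10.82 with GC. Every QHD array was above every GC array, and the normal diet and HFD arrays covered both. QHD against GC came to 0.52 (SE 0.31, adjusted p = 0.638, limma), and its other changes were -0.38 to 0.22 with no call.

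On the HFD several receptors differed between animals in the same direction. HFD animal 24 had the highest signal of its group for 5 of the 8 tested receptors, beside 33.3% of all genes, and HFD animal 36 the lowest for 5 of 8, beside 35.3%. Animal 24 exceeded animal 36 by 1.69 for Nr0b2, 1.32 for Nr1i3, 1.28 for Nr1i2, 0.74 for Nr5a2, 0.44 for Rxra and 0.28 for Hnf4a on the log2 scale. Nr1h3 and Nr1h4 went the other way, by -0.07 and -0.61, and the median over all genes was -0.02. The pooled within-group SD was 0.45 for Nr1i3, 0.36 for Rxra and Nr1i2, 0.26 for Nr1h4, 0.22 for Nr5a2 and 0.15 for Nr1h3 and Hnf4a.

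**Figure D3:**
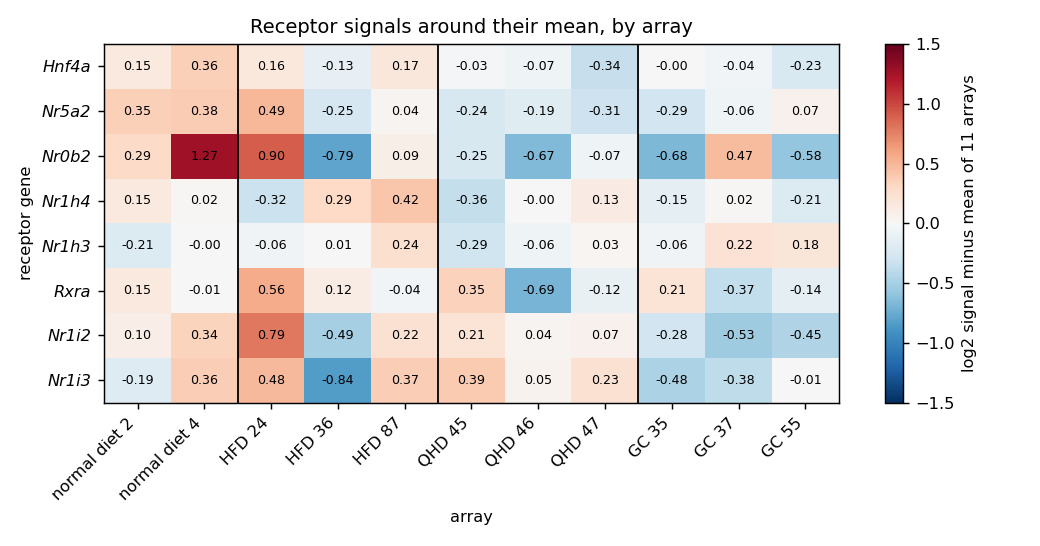
Each cell gives the log2 signal of a receptor (rows) on an array (columns, grouped by vertical lines) minus that receptor's mean over the 11 arrays, in red above and in blue below it. Nr0b2, Nr5a2, Nr1i2 and Nr1i3 are low together on HFD animal 36, and Nr1i2 is low on all 3 GC arrays.

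Among pairs of receptors, PXR and CAR had the highest correlation over the 11 arrays (Pearson 0.82), followed by Nr0b2 with Nr5a2 (0.78), Hnf4a with Nr5a2 (0.72) and Hnf4a with Nr0b2 (0.70). Rxra with Nr1h3 had the lowest, -0.44. These points share 4 groups and are given as a description. Of all tested genes the most alike in pattern were Tle1 and Il6r for Nr1i2 (both 0.98) and Ociad1 (0.96) and Fbp1 (0.94) for Nr5a2. For Hnf4a they were Rnf103 (0.92) and Dusp23 (0.90), for Nr0b2 Esrrg (0.89) and Sypl1 (0.87) and for Nr1i3 Tars3 (0.93) and Isoc2a (0.91). For Nr1h3 they were Axl (0.91) and Kat7 (0.90), for Nr1h4 Tbc1d23 (0.92) and Wdr81 (0.87) and for Rxra Shank3 (0.90) and Sh3gl1 (0.88).

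Some known target genes of these receptors changed where the receptor mRNAs were not called, and most of these calls came in QHD or GC against the normal diet. Those comparisons share the normal diet arrays, so their values stand side by side and do not support each other. Lists of textbook targets were read by their counts and medians, beside a median log2 change of all genes between -0.01 and 0.05. Of all 9459 genes 451 rose and 255 fell with QHD against the normal diet, and 586 rose and 323 fell with GC.

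FXR keeps bile acids in check by raising the pumps that export them from the hepatocyte, and of 13 tested genes of this pathway 3 fell with QHD and 4 with GC against the normal diet, with none rising. The list median was -0.54 with QHD, -0.43 with GC and -0.27 on the HFD, where 0 were called. The list holds export pumps beside the uptake carrier Slc10a1 and beside Cyp7a1 and Cyp8b1, which SHP represses. Its counts and median therefore do not give 1 direction of FXR activity. Abcb4, the phospholipid flippase of bile, read 11.86 and 12.04 on the normal diet, 10.98, 10.43 and 11.23 on the HFD, 10.43, 10.27 and 10.25 with QHD and 10.43, 10.30 and 10.76 with GC. All arrays of the other groups lay below both normal diet arrays. Its change was -1.63 (SE 0.21, adjusted p = 0.00268, limma) with QHD and -1.45 (SE 0.21, adjusted p = 0.00429, limma) with GC, and on the HFD -1.07 (adjusted p = 0.0523, limma), which did not pass, though it did without HFD animal 24 (0.0288) or HFD animal 87 (0.0361). Abcb11, the bile salt export pump, fell by 1.02 with QHD (adjusted p = 0.0101, limma) and by 1.16 with GC (adjusted p = 0.00521, limma) on the log2 scale. Slc10a1, the bile acid uptake carrier, fell by 0.54 and 0.70, and Slc27a5, which joins bile acids to coenzyme A, fell by 0.73 with GC. Between QHD and GC no gene of this list was called. Leaving out normal diet animal 2 cut the called genes to 1 with QHD and 1 with GC, where Abcb11 had adjusted p of 0.0866 and 0.0542 by limma, while Abcb4 was called whichever array was left out. Nr0b2 itself is a target in this list, so its value above is counted here as well.

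**Figure D4:**
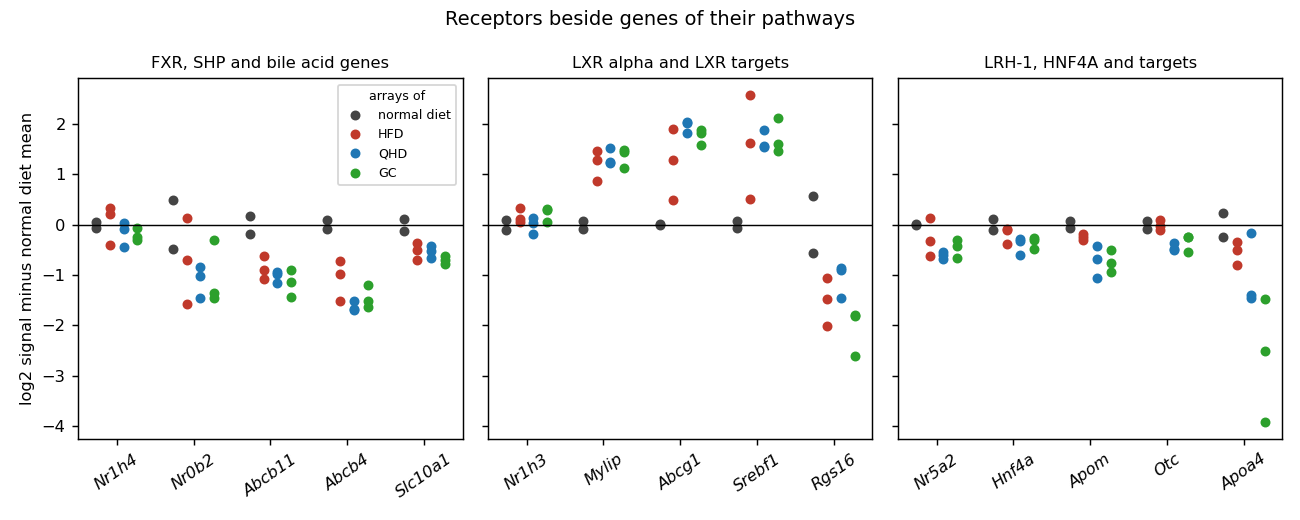
The log2 signal of each array minus the normal diet mean of the same gene (vertical axis) is plotted for receptors and genes of their pathways; colours are the groups and each point is 1 animal. Abcb4 and Abcb11 lie below 0 and Mylip and Abcg1 above 0 on every HFD, QHD and GC array. Nr1h3 also lies above 0 on these arrays, except on QHD animal 45. Nr1h4 lies on both sides of 0, and below it on all GC arrays.

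LXR alpha targets moved in part upwards against the normal diet. Of 14 tested, 1 rose on the HFD, 2 with QHD and 3 with GC, and 1 fell with GC. Mylip, which marks the LDL receptor for breakdown, read 7.43 and 7.60 on the normal diet, 8.39, 8.79 and 8.99 on the HFD, 8.76, 8.73 and 9.04 with QHD and 8.96, 8.64 and 8.99 with GC. All 9 arrays of the HFD-fed groups lay above both normal diet arrays. It rose by 1.21 (SE 0.20, adjusted p = 0.0244, limma) on the HFD, by 1.33 (adjusted p = 0.00500, limma) with QHD and by 1.35 (adjusted p = 0.00429, limma) with GC. On the HFD this call was lost when normal diet animal 2 or 4 or HFD animal 36 or 87 was left out, the highest adjusted p being 0.172 without normal diet animal 2. Abcg1, a cholesterol exporter, rose by 1.96 with QHD and 1.76 with GC. Its other probe sets gave 1.13 and 0.34 with QHD and 0.96 and 0.49 with GC, so the size depended on the probe set. Srebf1, the regulator of fatty acid synthesis, rose by 1.73 with GC (adjusted p = 0.0425, limma), though its second probe set gave 1.19 and was not called (adjusted p = 0.0882, limma), and Rgs16 fell by 2.08 (adjusted p = 0.0126, limma). The list medians were 0.63 on the HFD, 0.23 with QHD and 0.09 with GC.

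Markers of macrophages, cells in which LXR targets such as Abcg1 are also made, moved with these groups. Of 10 tested macrophage and Kupffer cell markers 0 were called on the HFD, 2 (Cd68 and Lyz2) were higher with QHD and 4 (Cd68, Lyz2, C1qc and Cd5l) with GC against the normal diet. Of all genes 0.529%, 7.46% and 9.61% were called in the same order. The change was above 0 for 10 of the markers on the HFD, 9 with QHD and 8 with GC, with medians of 0.63, 0.51 and 0.93. The summed log2 signal of these markers was 15.26 to 15.52 on the normal diet, 15.47 to 16.25 on the HFD, 15.79 to 16.03 with QHD and 16.15 to 16.21 with GC, and none stood at 0. The part of these cells in the LXR target values was not tested. For the hepatocyte markers 0 of 14 were called in any comparison, and their summed log2 signals were 18.69 to 18.87, 18.58 to 18.89, 18.44 to 18.63 and 18.61 to 18.71 in the same order of groups. Some other marker lists also shifted on the HFD, with QHD and with GC against the normal diet. In that order 10, 9 and 10 of 10 stellate cell markers were above 0 (medians 0.57, 0.29 and 0.24). All 4 tested T, NK and B cell markers were above 0 (medians 1.01, 0.96 and 1.18). Endothelial cell markers were below 0 in 5, 7 and 6 of 7 (medians -0.27, -0.42 and -0.32). None of these was called, and their part in the target values was not tested.

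PPAR alpha targets, the genes of fatty acid breakdown, fell with GC against the normal diet in 6 of 20 tested and with QHD in 2, with none rising. All 20 changes were below 0 in both comparisons, with medians of -0.67 and -0.35. Angptl4, an inhibitor of lipoprotein lipase, fell by 2.32 with GC (adjusted p = 0.0131, limma), and its signals of 10.60, 8.81 and 9.81 lay below the 11.69 and 12.44 of the normal diet. This Angptl4 call was lost in a fit of those groups alone. Pdk4, which restrains glucose oxidation, fell by 1.83 with GC and 1.67 with QHD (its second probe set gave -0.99 and -0.94, both called), Ehhadh of peroxisomal oxidation by 1.19 with GC, and Cyp4a3, a fatty acid hydroxylase, by 1.03 with GC and 0.89 with QHD. The Pdk4 call with QHD (adjusted p = 0.0489, limma) was lost without any one of the HFD or QHD animals or GC animals 37 and 55. It was kept in 4 of 9 other settings, and was lost in the fit of every probe set that called the second probe set. Cpt1a, the gate of mitochondrial oxidation, was at -0.15 (adjusted p = 0.817, limma) with GC. The GC count moved with single arrays, from 2 without normal diet animal 2 and 0 without normal diet animal 4 to 12 without HFD animal 36.

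Among the 9 lists of receptors, partners and targets, that of PXR and CAR was the only one with calls between QHD and the other HFD-fed groups. Ugt2b1, a glucuronosyltransferase, read 14.02 and 13.51 on the normal diet, 12.58, 12.74 and 12.98 on the HFD, 14.30, 13.93 and 14.21 with QHD and 12.92, 13.24 and 13.00 with GC. Every QHD array lay above every HFD and GC array. It rose by 1.38 against HFD (SE 0.16, adjusted p = 0.00347, limma) and by 1.09 against GC (SE 0.16, adjusted p = 0.0190, limma). The first of these was called whichever array was left out, and the second was lost without any one of QHD animals 45 and 47 and GC animals 35, 37 and 55, with an adjusted p of up to 0.100. Abcc3, an exporter of conjugates, rose by 1.60 with QHD against GC (adjusted p = 0.0425, limma), a call lost without any one of HFD animal 87, QHD animals 45 and 47 and GC animals 35, 37 and 55 (adjusted p up to 0.195), and by 1.27 against the normal diet. On the HFD Ugt2b1 fell by 1.00 and Alas1, the first enzyme of haem synthesis, by 1.65 against the normal diet. With GC, Cyp3a9, a steroid and drug hydroxylase, fell by 1.66, Alas1 by 1.23 and Ugt2b1 by 0.71. Cyp3a2 was called in no comparison, and the list median was 0.26 for QHD against HFD and 0.24 for QHD against GC, with 18 genes tested. Cyp3a1, Cyp3a23/3a1, Cyp2b1 and Cyp2b2 of this list had no probe set tied to their symbol alone and were not read.

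HNF4A and LRH-1 targets showed few calls. Of 14 HNF4A targets Otc, of the urea cycle, fell by 0.45 with QHD (adjusted p = 0.0366, limma) and Apoa4, an apolipoprotein, fell by 2.63 with GC (adjusted p = 0.0256, limma). Of 10 LRH-1 targets Apom, an apolipoprotein of high-density lipoprotein, fell by 0.72 with QHD and 0.74 with GC. The bile acid synthesis genes Cyp7a1 and Cyp8b1, which SHP represses, were not called. Cyp7a1 read 12.57 and 10.06 on the normal diet (SD 1.77) and 12.92, 11.60 and 11.24 on the HFD. With QHD it read 12.78, 12.79 and 13.63, and with GC 13.26, 13.92 and 13.36. Every QHD and GC array thus lay above both normal diet arrays, opposite in direction to Apom. Cyp8b1 read 11.13, 11.91 and 11.31 with QHD and 13.21, 12.98 and 13.07 with GC, a difference of -1.64 with an adjusted p of 0.329 by limma. Among the 20 alternatives this difference passed only in a limma fit of those groups alone, at an adjusted p of 0.0153.

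Of 20 tested nuclear receptors outside the 9, Rora, a clock receptor, fell against the normal diet. It fell by 0.96 with QHD (adjusted p = 0.0192, limma) and by 1.51 with GC (adjusted p = 0.00215, limma). Nr1d1 of the same list, the clock repressor REV-ERB alpha, rose by 3.37 with GC against the normal diet (adjusted p = 0.00997, limma). It read 5.69 and 6.69 on the normal diet and 9.93, 7.76 and 8.59 on the HFD. With QHD it read 7.36, 6.64 and 6.25, and with GC 9.68, 9.90 and 9.12. The lower normal diet array lay below the background limit and the other just above it, so the size of the rise is uncertain. All HFD arrays also lay above both normal diet arrays, though without a call, so a higher signal was not particular to GC. Of 17 coregulators 0 were called in any comparison on the probe set that stood for the gene. A second, dimmer probe set of Ppargc1a, a coactivator of several of these receptors, was however called when every probe set was fitted, at 1.51 on the HFD (adjusted p = 0.0346, limma) and 1.06 with QHD (adjusted p = 0.0418, limma) against the normal diet. The probe set that stood for the gene gave 0.88 (adjusted p = 0.0751, limma) and 0.65 (adjusted p = 0.0752, limma) in the same comparisons. Of 13 other liver transcription factors Onecut1 rose by 2.12 (adjusted p = 0.0341, limma) and Tcf7l2 fell by 0.61 (adjusted p = 0.0241, limma) with QHD against the normal diet. These calls rested on 1 probe set each: the other Onecut1 probe set gave 0.66 (adjusted p = 0.279, limma), and the other Tcf7l2 probe sets gave -0.38, -0.44 and -0.56 (adjusted p = 0.137 to 0.361, limma).

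The calls on single targets rested strongly on the normal diet arrays. Of 38 calls of the named genes 27 were lost without normal diet animal 2 and 19 without normal diet animal 4, with adjusted p up to 0.240 and 0.263 by limma. Leaving out any other single array lost 2 to 10 of them. Abcb4 in both comparisons, Mylip with QHD and with GC, Rora with GC and Ugt2b1 in QHD against HFD stayed called with each of the 11 arrays left out in turn. With all 12 arrays, the one labelled normal diet 3 included, Angptl4 with GC against the normal diet was the only one of the 38 that was still called (adjusted p = 0.0422, limma). Angptl4 read 12.97 on normal diet 3, above its signal on each of the 11 other arrays. This fit is therefore no check of the Angptl4 call among the liver arrays.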

How the data were processed

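The deposited values were log2 signals that the authors made with Affymetrix Expression Console and the MAS5 algorithm, per the submitters' processing notes; the labels give 6 µg of total RNA per array, and no version of either program is stated there. Linear signals had a 2% trimmed mean of 500.2 to 500.3 on each array, so each had been scaled by 1 factor. Of 31099 probe sets, 20832 carried 1 symbol in the platform annotation, 436 several and 9831 none. The probe set with the highest mean stood for its gene, and 9459 genes with a mean above 6.66, the median of all probe sets, were tested. Median log2 signals were 6.62 to 6.87 on 11 arrays and 7.19 on normal diet 3, which the rule of the gene set leaves out.

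Each array was taken as 1 animal, as its label numbers it; p-values measure the spread between these arrays. One mean per group was fitted with limma 3.58.1 in R 4.3.3 (trend and robust options, 7 residual degrees of freedom), with 95% intervals and Benjamini-Hochberg adjustment over all tested genes. In simulated signals with 200 changed genes, 65.2% to 73.4% of log2 changes of 1 and 92.6% to 95.7% of 2 were found over the 6 comparisons, and 4% to 6.07% of calls were false. The changed genes were drawn at random from all tested genes. These shares therefore do not hold for receptors of wide spread, such as Nr0b2 at the 97.3rd percentile of within-group SD. The simulated noise was normal, independent between genes and of equal spread on all arrays. In the real data array weights moved the count for GC against HFD from 9 to 659. The shares thus describe the simulated setting and may not hold for these arrays. The receptors, the 9 gene lists and the 7 marker lists were chosen with earlier results of these data known. Named besides the receptors were called list genes, up to 3 per list and comparison with the largest change, a panel of 12 textbook genes of which 10 were tested, and the 2 genes most alike to each receptor; Pparg and the 4 macrophage markers were named after their values were seen. Adjusted p-values are moderated limma p-values. The authors' own fold changes and p-values were not used. Alternatives were each array left out and 9 other settings. Figures were drawn with matplotlib 3.10.9.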

Additional observations from a re-analysis of the deposited data

Results flagged for a closer look

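On the array labelled normal diet 3, which entered no comparison, 5 genes named from the lists or the panel, and Pparg, had a log2 signal above that of all 11 other arrays. These were Angptl4 at 12.97, Abcg1 at 11.94, Tcf7l2 at 11.57, Nrip1 at 11.38, Pparg at 11.11 and Mylip at 10.59. They are given as values of data outside the comparisons. No receptor was above all 11 other arrays there.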

How the results depend on the processing

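No paired analysis was possible because the groups share no replicate numbers. The number of receptors called stayed at 0 in HFD against normal diet, QHD against HFD and QHD against GC under all 20 alternatives. Array weights gave 1 called receptor in GC against HFD, 1 in QHD against normal diet and 1 in GC against normal diet, and a fit of only the 2 groups compared gave 1 in QHD against normal diet and 1 in GC against normal diet. Leaving out 1 array gave 0 to 1 in GC against HFD, 0 to 1 in QHD against normal diet and 0 to 1 in GC against normal diet. The receptors concerned were Nr5a2 and Nr1i2. Of 426 receptor values under other settings 393 kept their direction and side of the threshold, 5 newly passed and 28 changed sign, and with 1 array left out 495 of 528, 5 and 28. No call on a receptor could be lost, since none was made.

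With all 12 arrays, normal diet 3 included, values against the normal diet changed sign. In HFD against normal diet these were Hnf4a 2.74, Nr0b2 2.86, Nr1i2 1.54, Nr1i3 2.01, Nr5a2 1.29, Abcb11 2.13, Abcb4 0.69, Alas1 0.012 and Ugt2b1 1.72. In QHD against normal diet they were Hnf4a 2.53, Rxra 0.24, Nr1h3 0.28, Nr1h4 3.01, Nr0b2 2.47, Nr1i2 1.47, Nr5a2 0.95, Abcb11 1.97, Abcb4 0.13, Apom 2.06, Cyp4a3 1.98, Otc 3.70 and Slc10a1 2.99. In GC against normal diet they were Hnf4a 2.59, Rxra 0.29, Nr1h4 2.98, Nr0b2 2.54, Nr1i2 0.95, Nr1i3 1.71, Nr5a2 1.10, Abcb11 1.84, Abcb4 0.31, Alas1 0.43, Apoa4 0.73, Apom 2.04, Cyp3a9 1.59, Cyp4a3 1.84, Ehhadh 0.98, Slc10a1 2.82, Slc27a5 2.38 and Ugt2b1 2.01. The array with little hepatocyte mRNA is by construction the only difference from the reported values.

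Array weights turned small values, to -0.012 for Rxra and 0.15 for Nr1i3 in HFD against normal diet, -0.038 for Nr1i3 in QHD against HFD, 0.055 for Nr0b2 in GC against HFD, 0.030 for Rxra and -0.015 for Nr1h4 in QHD against GC and 0.0096 for Nr1h3 in QHD against normal diet. Quantile normalization turned Rxra to 0.013 in QHD against GC and Nr1h3 to 0.032 in QHD against normal diet. The cause was not tested.

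Leaving out 1 array spanned 0 for 18 receptor values. In HFD against normal diet these ran from -0.032 to 0.27 for Rxra, -0.10 to 0.27 for Nr1h4, -0.35 to 0.29 for Nr1i2 and -0.36 to 0.34 for Nr1i3. In QHD against HFD they ran from -0.82 to 0.025 for Nr0b2, -0.40 to 0.24 for Nr1i2 and -0.20 to 0.46 for Nr1i3, and in GC against HFD from -0.0097 to 0.14 for Nr1h3, -0.76 to 0.092 for Nr0b2 and -0.36 to 0.010 for Nr5a2. In QHD against GC they ran from -0.13 to 0.041 for Hnf4a, -0.30 to 0.22 for Rxra, -0.069 to 0.17 for Nr1h4 and -0.28 to 0.30 for Nr0b2. In QHD against normal diet they ran from -0.48 to 0.044 for Rxra, -0.11 to 0.096 for Nr1h3, -0.23 to 0.0060 for Nr1i2 and -0.14 to 0.41 for Nr1i3.

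Counts over all genes moved more, in the order HFD against normal diet, QHD against HFD, GC against HFD, QHD against GC, QHD against normal diet and GC against normal diet. They were 50, 53, 9, 26, 706 and 909 as reported, 0, 0, 0, 0, 4 and 65 with 12 arrays, 267, 434, 659, 185, 972 and 1458 with array weights, 1, 20, 0, 70, 916 and 1024 with only the groups compared and 34, 37, 2, 10, 559 and 815 without the trend and robust options. The remaining settings stayed within 1.5 times the reported counts. Leaving out an array gave 12 to 309, 18 to 162, 0 to 126, 6 to 59, 135 to 1042 and 164 to 1271.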

Other observations

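On the array labelled normal diet 3 the receptors lay at very different distances from the other normal diet arrays. Nr1h3 (LXR alpha) read 10.94, which was 0.85 below the mean of animals 2 and 4 on the log2 scale, and Rxra read 5.90, a difference of -1.40. Nr5a2 read 6.39, Nr1i2 5.75 and Nr1i3 4.65, with differences of -4.67, -4.76 and -6.27. The largest differences were those of Hnf4a at 4.80 (-8.80), Nr1h4 at 1.93 (-9.53) and Nr0b2 at 1.61 (-10.72). Pparg, the adipocyte member of the PPAR family, read 11.11 there and 6.53 to 7.73 on the other 11 arrays.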
